A study of Fragaria x ananassa with 28 samples.

Results

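Transcripts for the light-harvesting and photosystem proteins of the chloroplast were followed in ripening strawberry fruit that had been given abscisic acid (ABA), nordihydroguaiaretic acid (NDGA) or water. Members were taken by their Swiss-Prot descriptions: chlorophyll a-b binding proteins, subunits of photosystems I and II, oxygen-evolving enhancer proteins, chloroplast plastocyanin and cytochrome b6-f subunits. Of 301219 assembled transcripts, 219 carried such a description, and the 120 of them that reached an RPKM of 1 in at least 2 libraries are reported. The other 99 stayed below that level. RPKM is the number of reads scaled to transcript length and to the depth of the library, so levels can be compared between transcripts of different length. The fruit were receptacles of the octaploid cultivar 'Toyonoka' (Fragaria x ananassa), injected 2 weeks past flowering with 100 µL of solution. ABA, the hormone that promotes ripening of this non-climacteric fruit, was given at 1 µM and sampled at day 5 and day 8. NDGA, a blocker of ABA synthesis, was given at 100 µM and sampled on the same days. Distilled water was the control, with libraries from day 0, day 5 and day 8. Each of the 7 groups had 2 mRNA libraries, and the RNA of 10 fruits was pooled for a group. No source says whether the paired libraries came from separate pools, so the p-values here speak of the spread between libraries alone, part or all of which may be technical.

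Photosystem II uses light energy to split water, at a manganese cluster shielded by the oxygen-evolving proteins, and passes electrons through the cytochrome b6-f complex and the copper protein plastocyanin to photosystem I. Chlorophyll a-b binding proteins form the antennae that feed light energy to each photosystem. Green strawberry fruit carry out photosynthesis in the receptacle, and chlorophyll is lost as the fruit turn white and then red. The antenna and oxygen-evolving proteins are encoded in the nucleus, while the reaction centre proteins and many small photosystem II subunits are encoded in the plastid, whose messenger RNAs mostly lack stable poly(A) tails.

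The 120 transcripts came from 86 assembly components and were assigned to 39 proteins by description and KEGG identifier, which 112 of them carried. By role they were 12 antenna transcripts of photosystem I (LHCA1 to LHCA5), 42 antenna transcripts of photosystem II (LHCB1 to LHCB7), 17 of photosystem I subunits, 23 of photosystem II subunits, 6 of photosystem II assembly and photoprotection, 9 of the oxygen-evolving complex, 4 of plastocyanin and 7 of cytochrome b6-f. Only 10 of the 120 were plastid-encoded (CP43, D2, PsbI, PsbJ, PsbK, PsbM and PetD), in libraries made from poly(A) RNA. Forms of 1 component can be alleles, copies from different subgenomes or splice forms that share reads, so the level of a single form is uncertain, and 33 of the 39 proteins had at least 2 forms. The 3 members nearest above the limit had a second-highest RPKM of 1.007, 1.072 and 1.093, and the 3 nearest below had 0.7863, 0.8771 and 0.9615. Because the limit is met through the groups in which a transcript is high, counts over the 120 are a description and do not stand for all 219. Without the limit, the 156 of the 219 with a value above 0 in any library could be tested. Of these, 66 were called lower and 5 higher for ABA against water at day 8, where 7.04% of all transcripts so tested were called in either direction. For NDGA against water at day 5, 14 were higher and 0 lower, where 1.03% of all were called.

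Libraries held 7356752 to 9035037 counted reads, and 1 read on a 1 kb transcript was worth 0.111 to 0.136 RPKM. A few abundant transcripts carried most of the signal: averaged over groups, the 3 most abundant members made up 34.9% of the summed RPKM of the 120 and the 10 most abundant 58.5%. The water libraries of day 0 and day 5 stood apart in seed content, although all were labelled receptacle. The summed RPKM of 77 seed storage transcripts (legumins, vicilins, oleosins) was 22392 and 20337 in water libraries at day 0 and 5419 and 5517 in water libraries at day 5. In the ABA, NDGA and day 8 water libraries it lay between 186 and 316. Markers of the ripening receptacle (123 transcripts, among them chalcone synthases and expansins) were present in every group, with sums from 2310 to 5953 RPKM. In bulk tissue of this kind, fewer cells of a type and less RNA per cell cannot be told apart.

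Summed over the 120 transcripts, expression was lowest in ABA-injected fruit on both days and highest in NDGA-injected fruit at day 5 and water-injected fruit at day 8. The sum was 1783 and 1844 RPKM in the water libraries of day 0. At day 5 it was 954 and 967 RPKM with ABA, 3229.8 and 3206 with NDGA and 1558 and 1618 with water, and at day 8 it was 854 and 827 with ABA, 2389 and 2220.4 with NDGA and 3185 and 3328 with water. The paired libraries of each group lay closer to each other than to those of the other groups of the same day. As a mean share of all RPKM in a library, the set made up 0.0868% with ABA, 0.285% with NDGA and 0.145% with water at day 5, against 0.0758%, 0.203% and 0.289% at day 8. The 2 treatments thus stood on opposite sides of water at day 5 and on the same side at day 8, NDGA much nearer to water.

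**Figure D1:**
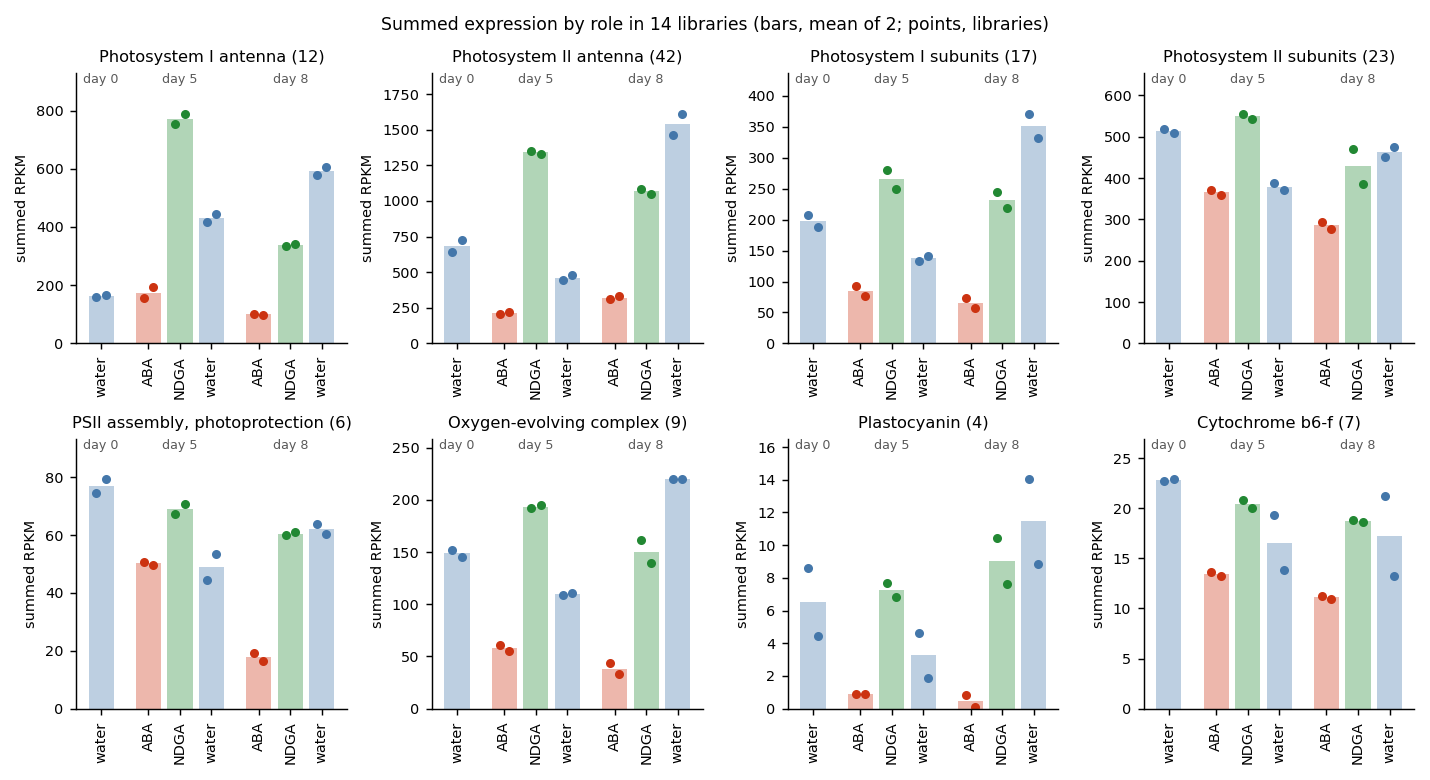
Summed RPKM (y axis, linear from 0) of the transcripts of each role in the 14 libraries, with the number of transcripts in brackets; bars are means of 2 libraries and points are libraries. ABA bars are the lowest of their day in every panel except photosystem II assembly and photoprotection at day 5, where ABA and water lie side by side.

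ABA against water at day 8 gave more calls among these transcripts than any of the other 8 comparisons between groups. The antennae, photosystem I, the oxygen-evolving complex and plastocyanin were all lower with ABA, while 3 transcripts described as PsbY were higher. Of these, 1 was short and of uncertain identity, and another was a form of the same component. Of the 120 transcripts, 69 fell and 5 rose (limma, adjusted p below 0.05), where 8.98% and 4.3% of all 99136 transcripts tested were called lower and higher. The median log2 change of the members was -1.49 after adding 1 to each RPKM, a step that shrinks the change of scarce transcripts, against -0.20 for all transcripts tested. That shift of all transcripts was taken away by a scaling to median ratios, under which the members' median was -1.35 and 65 fell. Both ABA libraries lay below both water libraries in 90 of the 120 transcripts, or 75.0%, where 31.9% of all transcripts did so. Summed over members, the ABA level was 3.87-fold lower. That sum includes the transcripts described as PsbY, with 126 and 127 RPKM with ABA against 44.7 and 44.5 with water. By role, calls lower numbered 10 of 12 for the photosystem I antenna, 21 of 42 for the photosystem II antenna, 13 of 17 for photosystem I subunits and 10 of 23 for photosystem II subunits. They were 7 of 9 for the oxygen-evolving complex, 4 of 6 for assembly and photoprotection, all 4 for plastocyanin and 0 of 7 for cytochrome b6-f, where 4 were lower at an unadjusted p of 0.05.

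**Figure D2:**
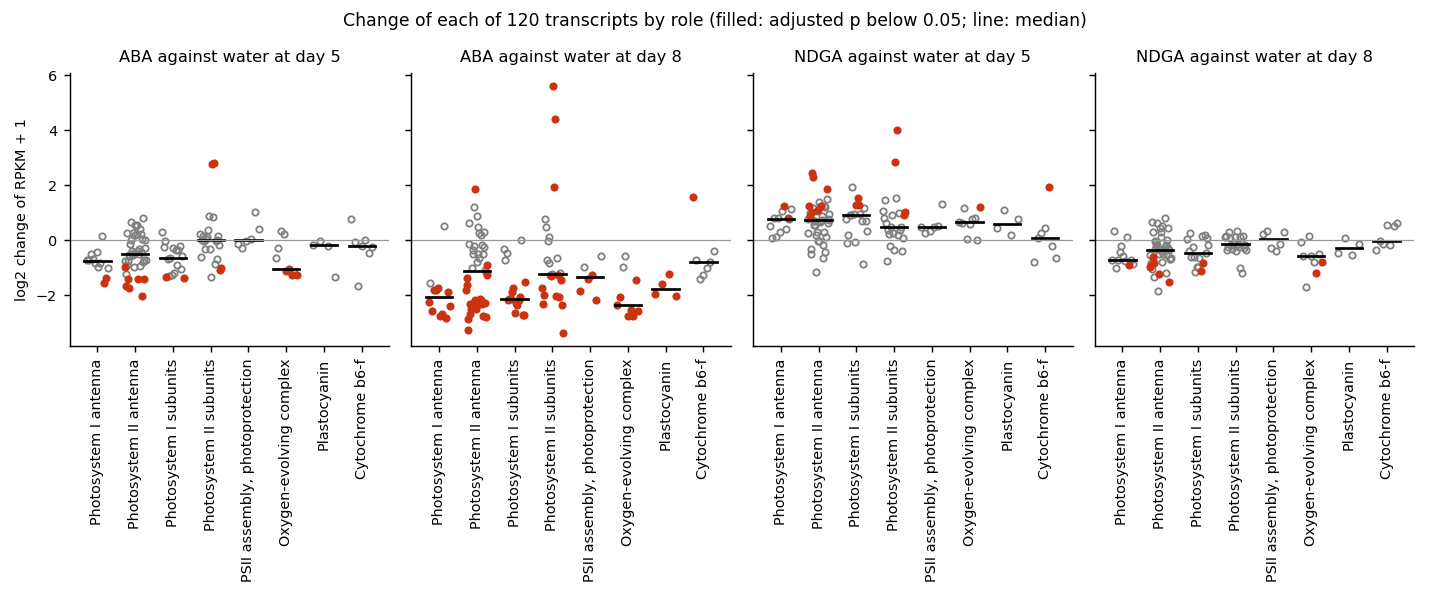
Change of each of the 120 transcripts (y axis, log2 of RPKM + 1, treated minus water) by role in 4 comparisons; filled points have an adjusted p below 0.05 and lines are medians by role. At day 8 the ABA points lie mostly below -1 in the antenna, photosystem I and oxygen-evolving groups, while 2 PsbY points lie above 4.

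In the photosystem I antenna, the most abundant transcript was LHCA4 (comp95310_c0_seq1, described as chlorophyll a-b binding protein P4), a protein that holds long-wavelength chlorophylls beside the reaction centre. It stood at 40.6 and 34.4 RPKM with ABA against 274 and 262 with water at day 8. The ABA libraries were far below, with no overlap (log2 change -2.81 ± 0.10 (SE), adjusted p = 5.97e-10). A second LHCA4 transcript (comp96886_c0_seq1) had 15.7 and 23.4 RPKM with ABA and 70.3 and 75.7 with water (log2 change -1.87 ± 0.19 (SE), adjusted p = 2.27e-05). Summed over their forms, LHCA1 had 2.14 and 3.57 RPKM with ABA against 20.1 and 20.2 with water, LHCA2 had 16.3 and 17.3 against 83.1 and 85.4, and LHCA3 had 10.5 and 10.4 against 77.4 and 80.1. Every one of these sums was lower in both ABA libraries. LHCA5, a minor antenna protein, was near the detection limit, with 1.40 and 0.699 RPKM with ABA and 1.02 and 0 with water, and its libraries overlapped.

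In the photosystem II antenna, LHCB1, LHCB2 and LHCB3 form the major trimers, and LHCB4, LHCB5 and LHCB6 (CP29, CP26 and CP24) link them to the core. The most abundant member of all, an LHCB1 transcript (comp96419_c0_seq1), stood at 122 and 133 RPKM with ABA against 599 and 645 with water at day 8 (log2 change -2.28 ± 0.10 (SE), adjusted p = 5.98e-09). A second LHCB1 transcript (comp103470_c0_seq2) had 58.0 and 65.0 RPKM with ABA and 386 and 408 with water (log2 change -2.67 ± 0.14 (SE), adjusted p = 2.85e-08). Neither pair of groups overlapped. LHCB5 (comp101848_c0_seq1) had the deepest fall of the named antenna transcripts, with 6.86 and 5.81 RPKM with ABA against 70.3 and 66.8 with water (log2 change -3.25 ± 0.13 (SE), adjusted p = 3.07e-09). LHCB3 (comp99703_c0_seq1) had 3.11 and 2.11 RPKM with ABA against 22.6 and 24.6 with water (log2 change -2.78 ± 0.26 (SE), adjusted p = 1.09e-05). Over the whole role, 21 of 42 transcripts fell and 1 rose. The calls were spread unevenly over the proteins: 8 of 12 LHCB1 transcripts fell and all 5 of LHCB4, but 3 of 17 LHCB2 transcripts, most of which were scarce. LHCB7, a rare antenna protein, was not lower, with 10.2 and 7.80 RPKM with ABA and 6.77 and 6.94 with water summed over 2 forms, neither of which passed the test (adjusted p = 0.133 for comp102355_c0_seq1 and 0.848 for comp102355_c0_seq2).

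Photosystem I subunits fell together at day 8 with ABA, 13 of 17 transcripts from 7 proteins. PsaG (comp99224_c0_seq1), a subunit on the antenna side of the complex, had 6.13 and 6.35 RPKM with ABA against 59.8 and 35.7 with water (log2 change -2.71 ± 0.25 (SE), adjusted p = 7.58e-06). PsaH (comp97248_c0_seq1), which helps to dock the mobile photosystem II antenna, had 11.6 and 6.75 with ABA against 59.5 and 60.4 with water (log2 change -2.63 ± 0.23 (SE), adjusted p = 5.91e-06). PsaE (comp98799_c0_seq1), on the stromal side where ferredoxin binds, had 18.1 and 17.6 with ABA against 73.6 and 81.1 with water (log2 change -2.05 ± 0.19 (SE), adjusted p = 8.01e-06). In all 3 the ABA libraries lay below both water libraries. Summed over forms, PsaD, which also binds ferredoxin, had 3.49 and 4.33 RPKM with ABA against 32.7 and 25.0 with water, and PsaF, the docking site of plastocyanin, had 4.10 and 2.30 against 11.9 and 9.64. PsaK had 8.62 and 3.24 with ABA against 31.9 and 28.9 with water and PsaL 6.38 and 3.94 against 32.2 and 26.3.

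Photosystem II transcripts changed less evenly. PsbR (comp95586_c0_seq2), a small subunit near the oxygen-evolving proteins and the second most abundant member, had 100.3 and 82.4 RPKM with ABA against 213 and 222 with water at day 8 (log2 change -1.25 ± 0.11 (SE), adjusted p = 4.64e-06). PsbK (comp54609_c0_seq1), a plastid-encoded small subunit, had 32.3 and 35.0 RPKM with ABA against 80.9 and 88.9 with water (log2 change -1.31 ± 0.13 (SE), adjusted p = 1.88e-05). These falls were smaller than those of the leading antenna transcripts, and the groups did not overlap. The sums of PsbW, a small subunit at the antenna contact, were 7.54 and 4.38 RPKM with ABA against 36.8 and 32.1 with water, and those of PsbTn were 7.16 and 9.31 against 33.9 and 46.3. For D2, a plastid-encoded reaction centre protein, the sums were 5.82 and 3.03 RPKM with ABA against 1.79 and 2.02 with water, and neither of its 2 transcripts passed. Among the oxygen-evolving proteins, which shield the manganese cluster, PsbQ (comp99382_c0_seq1) had 9.03 and 7.38 RPKM with ABA against 54.8 and 52.5 with water (log2 change -2.58 ± 0.16 (SE), adjusted p = 2.13e-07), and PsbP (comp103116_c0_seq1) had 12.2 and 5.44 against 49.6 and 43.0 (log2 change -2.35 ± 0.28 (SE), adjusted p = 8.92e-05). PsbO sums were 11.2 and 7.03 RPKM with ABA and 61.1 and 73.5 with water. All 3 proteins were lower in both ABA libraries.

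Of the assembly factors, HCF136 (comp104335_c0_seq1), needed to build the photosystem II reaction centre, had 7.92 and 6.85 RPKM with ABA against 23.2 and 19.6 with water at day 8 (log2 change -1.42 ± 0.20 (SE), adjusted p = 0.000334), and Psb28 (comp103543_c0_seq1) had 6.36 and 5.06 against 22.9 and 23.1 (log2 change -1.85 ± 0.19 (SE), adjusted p = 2.04e-05). PsbS, which triggers the release of excess light energy as heat, summed to 0.592 and 1.36 RPKM with ABA and 6.76 and 6.05 with water. The 4 plastocyanin transcripts summed to 0.824 and 0.128 RPKM with ABA against 14.0 and 8.86 with water, so that the ABA level came from a few reads and no fold is given. The 2 most abundant of them fell: comp100844_c0_seq2 had 0.255 and 0.128 RPKM with ABA against 5.85 and 2.46 with water (adjusted p = 0.0022), and comp100161_c0_seq1 had 0.282 and 0 against 3.29 and 3.52 (adjusted p = 0.0165). The call on comp100161_c0_seq1 was lost without any 1 of the 4 libraries compared, with adjusted p between 0.057 and 0.109. PetC, the Rieske iron-sulfur protein of cytochrome b6-f, had 3.54 and 2.90 RPKM with ABA against 7.00 and 4.83 with water for comp105915_c1_seq3 and did not pass (adjusted p = 0.101). PetM (comp106490_c0_seq6), a small subunit, had 1.47 and 0.652 RPKM with ABA against 6.51 and 2.04 with water and did not pass either (adjusted p = 0.131). The cytochrome b6-f sums with ABA were nonetheless below both water libraries, 11.3 and 10.9 against 21.2 and 13.2 RPKM.

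Markers of other tissues moved in the same comparison. The 166 epidermis and cuticle transcripts summed to 517 and 504 RPKM with ABA and 1091 and 1060.1 with water at day 8, with 39 called lower and 6 higher, and 42 of them were listed at 0 in both ABA libraries against 29 in both water libraries. The 55 xylem transcripts summed to 828 and 751 RPKM with ABA and 1059 and 954 with water, with 13 lower and 2 higher, and 8 listed at 0 with ABA against 2 with water. The 123 ripening markers of the receptacle summed to 5328 and 5447 RPKM with ABA and 5953 and 5916.5 with water. Of them 22 were called lower and 17 higher, where 8.98% and 4.3% of all transcripts were called so. They were listed at 0 for 17 transcripts in both ABA libraries and for 9 in both water libraries. The part of these markers in the result was not tested. Seed storage sums were 226 and 211 with ABA and 305 and 316 with water. A fit of only the 4 libraries compared called 1135 of all 99136 transcripts. The number of members called in this comparison was 63 to 68 without any 1 library, but 17 when only the 4 libraries compared were fitted, in which 85 passed an unadjusted p of 0.05.

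**Figure D3:**
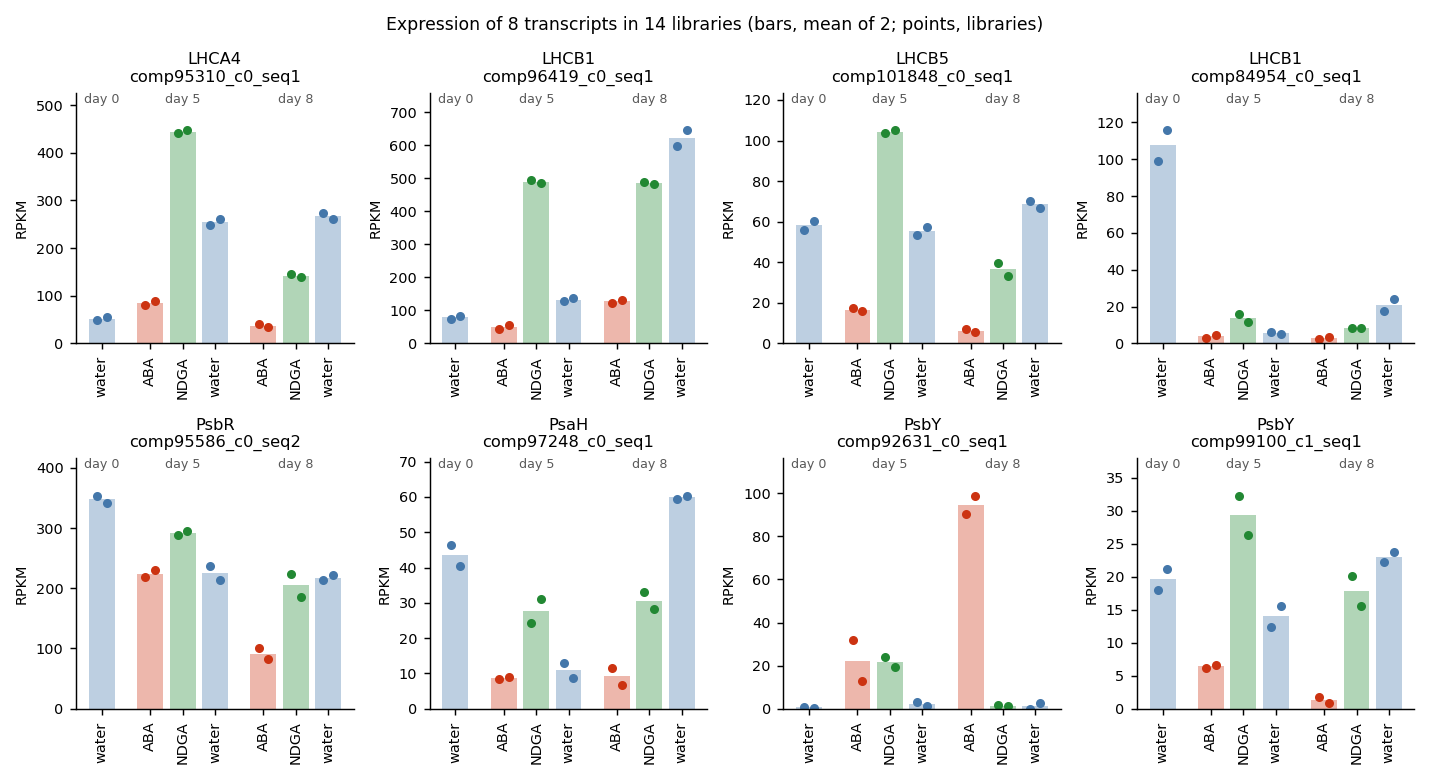
RPKM (y axis, linear from 0) of 8 transcripts in the 14 libraries; bars are means of 2 libraries and points are libraries. LHCA4, LHCB1 (comp96419_c0_seq1) and LHCB5 are lowest with ABA within each day and above water with NDGA at day 5, whereas comp92631_c0_seq1, a short transcript whose identity as PsbY is uncertain, is highest with ABA at day 8, at 90.4 and 98.9 RPKM.

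At day 5 fewer members were called with ABA, most of them in the antennae and the oxygen-evolving complex, while the sums of photosystem I subunits, plastocyanin and cytochrome b6-f were lower too. ABA against water gave 17 members lower and 2 higher, where 0.956% of all transcripts were called lower and 1.21% higher, and the members' median log2 change was -0.39 against 0 for all transcripts. The sums of the photosystem I antenna were 156 and 193 RPKM with ABA against 417 and 445 with water, those of the photosystem II antenna 207 and 219 against 442 and 482, and those of the oxygen-evolving complex 60.7 and 55.6 against 109 and 111. All 3 were lower in both ABA libraries. Photosystem I subunits, 2 of 17 called lower, summed to 93.0 and 76.2 RPKM with ABA against 134 and 141 with water, and the sums of all 7 of its proteins were lower in both ABA libraries. Plastocyanin summed to 0.926 and 0.874 RPKM with ABA against 4.64 and 1.87 with water and cytochrome b6-f to 13.7 and 13.2 with ABA against 19.4 and 13.8 with water, both without overlap and with no transcript called lower. Photosystem II subunits stood at 372 and 359.7 RPKM with ABA and 387 and 370.3 with water, and assembly and photoprotection at 50.6 and 49.8 with ABA and 44.3 and 53.6 with water, with libraries that overlapped between the groups. Among photosystem II subunits, the sums of CP43, PsbK, PsbM and PsbTn were lower in both ABA libraries. The transcripts described as PsbY summed higher, to 50.2 and 31.7 RPKM with ABA against 27.6 and 29.4 with water, as did the scarce PsbI. The role was not tested without the PsbY transcripts. In the assembly and photoprotection role, PsbS summed higher with ABA, 7.26 and 7.04 RPKM against 2.96 and 2.81 with water, with no transcript called. At day 8 its sum was lower with ABA, as given above. HCF136 and Psb28 overlapped between the groups at day 5. In cytochrome b6-f the scarce PetD was higher, at 4.53 and 1.54 RPKM with ABA against 1.41 and 0.997 with water.

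LHCA4 (comp95310_c0_seq1) had 81.6 and 89.9 RPKM with ABA against 249 and 260.2 with water at day 5 (log2 change -1.56 ± 0.10 (SE), adjusted p = 7.22e-07). LHCB1 (comp96419_c0_seq1) had 45.0 and 54.3 with ABA against 128 and 136 with water (log2 change -1.40 ± 0.10 (SE), adjusted p = 2.77e-06), and the second LHCB1 transcript (comp103470_c0_seq2) 17.8 and 23.2 against 53.7 and 58.3 (log2 change -1.42 ± 0.14 (SE), adjusted p = 5.55e-05). LHCB5 (comp101848_c0_seq1) had 17.4 and 16.01 with ABA against 53.4 and 57.6 with water (log2 change -1.68 ± 0.13 (SE), adjusted p = 7.94e-06). The ABA libraries lay below both water libraries in each of these. PsbQ (comp99382_c0_seq1), at 8.78 and 9.18 RPKM with ABA and 19.6 and 26.3 with water, also fell (log2 change -1.25 ± 0.16 (SE), adjusted p = 0.000687). PsbR (comp95586_c0_seq2) had 219 and 229.9 with ABA and 237 and 214 with water, with overlapping libraries (adjusted p = 1), and HCF136 (comp104335_c0_seq1) had 11.8 and 15.5 with ABA and 12.1 and 15.6 with water (adjusted p = 1). The number of members called was 12 without ABA replicate 1, 12 without water replicate 1 and 8 without water replicate 2. It was 0 when only the 4 libraries compared were fitted with limma, where 37 passed an unadjusted p of 0.05. With voom on reads recovered from the RPKM values it was 20, where voom called 2662 of all 99136 transcripts. The fit of 4 libraries called 10 of all 99136 transcripts. Seed storage sums were 244 and 260.4 RPKM with ABA against 5419 and 5517 with water, with 47 of 77 transcripts lower and 1 higher, and 29 listed at 0 in both ABA libraries against 8 in both water libraries. Xylem sums were 906 and 897 RPKM with ABA against 1379 and 1404 with water, with 9 of 55 lower and 0 higher, and 9 listed at 0 in both ABA libraries against 5 in both water libraries. Ripening marker sums were 4800.1 and 4822 RPKM with ABA against 3459 and 3428 with water, with 2 of 123 lower and 21 higher, and 13 listed at 0 in each group. Epidermis and cuticle sums were 725 and 731 RPKM with ABA against 892 and 895 with water, with 7 of 166 transcripts lower and 1 higher. The part of these markers in the day 5 ABA result was not tested.

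NDGA against water at day 5 went the other way. Members of the antennae, photosystem I and the oxygen-evolving complex were higher with NDGA, and so were 4 of the 5 transcripts described as PsbY. A total of 19 of 120 members rose and 0 fell (limma), where 1.23% of all transcripts were called higher and 0.802% lower. At an unadjusted p below 0.05, 60 members were higher and 1 was lower, with no share of all transcripts given at that limit. Voom called 28 members higher and 0 lower, where it called 2823 of all 99136 transcripts in either direction. Both NDGA libraries lay above both water libraries in 80 of 120 members, or 66.7%, where 19.8% of all transcripts did so. The median log2 change was 0.70, and the sum over members was 2.03-fold higher with NDGA. The photosystem II antenna summed to 1353 and 1330.3 RPKM with NDGA against 442 and 482 with water, the photosystem I antenna to 753 and 789 against 417 and 445, and photosystem I subunits to 280.4 and 249.9 against 134 and 141. Cytochrome b6-f, with 20.8 and 20.0 RPKM with NDGA and 19.4 and 13.8 with water, differed least.

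Among the called members of at least 100 RPKM with NDGA, 2 LHCB1 transcripts had the largest changes. LHCB1 comp103470_c0_seq2 had 304 and 313 RPKM with NDGA against 53.7 and 58.3 with water at day 5 (log2 change 2.44 ± 0.14 (SE), adjusted p = 2.36e-07), and comp96419_c0_seq1 had 494 and 486 against 128 and 136 (log2 change 1.88 ± 0.10 (SE), adjusted p = 1.53e-07). LHCA4 (comp95310_c0_seq1) had 441 and 447 with NDGA against 249 and 260.2 with water (log2 change 0.80 ± 0.10 (SE), adjusted p = 0.000459), LHCB5 (comp101848_c0_seq1) had 104 and 105 against 53.4 and 57.6 (log2 change 0.90 ± 0.13 (SE), adjusted p = 0.00231), and PsbQ (comp99382_c0_seq1) had 52.8 and 54.5 against 19.6 and 26.3 (log2 change 1.21 ± 0.16 (SE), adjusted p = 0.000981). In all of these the NDGA libraries lay above both water libraries. PsaH (comp97248_c0_seq1) rose to 24.3 and 31.1 RPKM with NDGA, against 12.9 and 8.81 with water (log2 change 1.28 ± 0.23 (SE), adjusted p = 0.01), a call that was lost without NDGA replicate 2 (adjusted p = 0.132) or water replicate 2 (adjusted p = 0.135). PsaG (comp99224_c0_seq1) had 65.2 and 50.8 with NDGA and 36.4 and 33.5 with water and did not pass (adjusted p = 0.219), nor did PsbR (comp95586_c0_seq2), at 288 and 295 with NDGA and 237 and 214 with water (adjusted p = 0.118). Members called numbered 9 without NDGA replicate 1, 8 without NDGA replicate 2, 10 without water replicate 1 and 12 without water replicate 2. With only the 4 libraries compared the limma count was 0, with 61 at an unadjusted p below 0.05. That fit called 22 of all 99136 transcripts. Seed storage sums were 208 and 188 RPKM with NDGA against 5419 and 5517 with water, with 50 of 77 transcripts lower and 0 higher, and 25 listed at 0 in both NDGA libraries against 8 in both water libraries. Epidermis and cuticle sums were 1024 and 1024 RPKM with NDGA against 892 and 895 with water, with 1 of 166 transcripts lower and 5 higher. Xylem sums were 1505 and 1514 with NDGA against 1379 and 1404 with water, with 0 of 55 lower and 4 higher. Ripening marker sums were 3007 and 3010.5 with NDGA against 3459 and 3428 with water, with 10 of 123 lower and 10 higher. What these lists contribute to the NDGA result was not tested.

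At day 8 the NDGA fruit were below the water fruit, with 0.708 times the water sum over members, and the calls lay in the antennae, photosystem I and the oxygen-evolving complex. NDGA against water gave 11 members lower and 0 higher (limma), where 1.48% and 0.705% of all transcripts were called so. At an unadjusted p below 0.05, 33 were lower and 1 was higher, again with no share of all transcripts given. Voom called 20 members lower and 0 higher, where it called 2526 of all 99136 transcripts in either direction. The members called were 6 of the photosystem II antenna, 2 of photosystem I, 2 of the oxygen-evolving complex and 1 of the photosystem I antenna. LHCA4 (comp95310_c0_seq1) had 145 and 139 RPKM with NDGA against 274 and 262 with water (log2 change -0.91 ± 0.10 (SE), adjusted p = 0.000217), and LHCB5 (comp101848_c0_seq1) had 39.5 and 33.4 against 70.3 and 66.8 (log2 change -0.90 ± 0.13 (SE), adjusted p = 0.00274). In both, the NDGA libraries lay below the water libraries. The leading LHCB1 transcript (comp96419_c0_seq1) had 488 and 484 RPKM with NDGA and 599 and 645 with water and did not pass (adjusted p = 0.103). Photosystem II subunits, at 471 and 386 RPKM with NDGA and 450.1 and 475 with water, overlapped between the groups.

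Several of the day 8 NDGA calls rested on all 4 libraries. LHCB3 (comp99703_c0_seq1), at 10.0 and 5.56 RPKM with NDGA against 22.6 and 24.6 with water (log2 change -1.53 ± 0.26 (SE), adjusted p = 0.00734), lost its call without NDGA replicate 2 (adjusted p = 0.0909), water replicate 1 (0.0541) or water replicate 2 (0.0768). PsbQ (comp99382_c0_seq1), at 31.1 and 30.3 RPKM with NDGA against 54.8 and 52.5 with water (log2 change -0.79 ± 0.16 (SE), adjusted p = 0.0223), lost it without any 1 of the 4 (adjusted p from 0.112 to 0.141). So did PsaE (comp98799_c0_seq1), at 45.2 and 42.3 against 73.6 and 81.1 (log2 change -0.81 ± 0.19 (SE), adjusted p = 0.0434), with adjusted p from 0.142 to 0.241. The NDGA libraries were below the water libraries in all 3 transcripts. Members called numbered 4 without NDGA replicate 1 or water replicate 1, and 2 without NDGA replicate 2 or water replicate 2. With only the 4 libraries compared the limma count was 0, with 36 at an unadjusted p below 0.05. That fit called 0 of all 99136 transcripts. Ripening markers of the receptacle, 123 transcripts, summed to 3176 and 3245 RPKM with NDGA and 5953 and 5916 with water, with 27 lower and 1 higher, and 12 listed at 0 in both NDGA libraries against 9 in both water libraries. Epidermis and cuticle sums were 925 and 888 RPKM with NDGA against 1091 and 1060 with water, with 10 of 166 transcripts lower and 0 higher. Xylem sums were 1212 and 1147 with NDGA against 1059 and 954 with water, with 0 of 55 lower and 5 higher. The contribution of these lists was not tested here.

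Set directly against each other, ABA fruit had lower sums than NDGA fruit in each of the 8 roles on both days. Among single proteins, the sums of LHCB7, PsbS and the scarce PetD were higher with ABA at day 5. At day 8 those of PetD and of the transcripts described as PsbY were higher with ABA. At day 5, 54 members were lower and 2 higher with ABA than with NDGA, where 3.4% and 3.05% of all transcripts were called so. At day 8, 58 were lower and 6 higher, where the background was 7.07% and 3.95%. Median log2 changes were -1.04 at day 5 and -1.14 at day 8, when the median of all transcripts was -0.21. LHCB1 comp103470_c0_seq2 differed most at day 5, with 17.8 and 23.2 RPKM with ABA against 304 and 313 with NDGA (log2 change -3.86 ± 0.14 (SE), adjusted p = 3.15e-09). LHCB1 comp96419_c0_seq1 had 45.0 and 54.3 with ABA against 494 and 486 with NDGA (log2 change -3.28 ± 0.10 (SE), adjusted p = 9.72e-10), and LHCA4 (comp95310_c0_seq1) 81.6 and 89.9 against 441 and 447 (log2 change -2.36 ± 0.10 (SE), adjusted p = 8.78e-09). None of these groups overlapped. At day 8, PsaG (comp99224_c0_seq1) had 6.13 and 6.35 with ABA against 53.8 and 44.9 with NDGA (log2 change -2.79 ± 0.25 (SE), adjusted p = 5.80e-06), and LHCB5 (comp101848_c0_seq1) had 6.86 and 5.81 against 39.5 and 33.4 (log2 change -2.35 ± 0.13 (SE), adjusted p = 8.89e-08). Photosystem I subunits were lower in 12 of 17 transcripts at day 5 and 10 of 17 at day 8. PetM (comp106490_c0_seq6), at 1.47 and 0.652 RPKM with ABA against 5.65 and 6.28 with NDGA, was called at day 8 (log2 change -1.78 ± 0.50 (SE), adjusted p = 0.0362) but not without any 1 of the 4 libraries compared (adjusted p from 0.078 to 0.212). With only the 4 libraries compared, 5 members were called at day 5 and 14 at day 8, where 81 and 1418 of all 99136 transcripts were called. Epidermis and cuticle sums were 725 and 731 RPKM with ABA against 1024 and 1024 with NDGA at day 5, with 26 of 166 transcripts lower and 4 higher, and 517 and 504 against 925 and 888 at day 8, with 29 lower and 5 higher. Those listed at 0 in both libraries numbered 34 with ABA against 27 with NDGA at day 5, and 42 against 28 at day 8. Xylem sums were 906 and 897 RPKM with ABA against 1505 and 1514 with NDGA at day 5, with 17 of 55 lower and 1 higher, and 828 and 751 RPKM with ABA against 1212 and 1147 with NDGA at day 8, with 12 of 55 lower and 0 higher. Xylem transcripts listed at 0 in both libraries numbered 9 with ABA against 2 with NDGA at day 5, and 8 with ABA against 5 with NDGA at day 8. Ripening marker sums were higher with ABA, 4800.1 and 4822 RPKM with ABA against 3007 and 3010.5 with NDGA at day 5, with 12 of 123 lower and 25 higher, and 5328 and 5447 RPKM with ABA against 3176 and 3245 with NDGA at day 8, with 13 of 123 lower and 32 higher. Those listed at 0 numbered 13 with ABA against 10 with NDGA at day 5, and 17 with ABA against 12 with NDGA at day 8. The part of these markers in the differences was not tested.

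The change against water itself differed between the days for both treatments. For ABA, the effect at day 8 minus that at day 5 was called lower in 32 of 120 members and higher in 0 (limma interaction), where 2.54% and 1.15% of all transcripts were called so. At an unadjusted p below 0.05, 59 were lower and 4 higher, with no share of all transcripts given. Voom called 30 members lower and 0 higher, where it called 3856 of all 99136 transcripts in either direction. For NDGA, 34 were called lower and 0 higher, where the background was 1.79% and 0.857%. The unadjusted counts were 59 and 1. Voom called 37 and 0, where it called 3106 of all 99136 transcripts in either direction. Both differences share the water libraries of day 5 and day 8, so they are given side by side only. LHCB1 comp103470_c0_seq2 had an ABA change of -2.67 ± 0.14 (SE) at day 8 and -1.42 ± 0.14 at day 5, and an NDGA change of -0.60 ± 0.14 at day 8 and 2.44 ± 0.14 at day 5, all on the log2 scale. PsbR (comp95586_c0_seq2) had an ABA change of -1.25 ± 0.11 at day 8 and -0.00 ± 0.11 at day 5 (adjusted p of the difference = 0.000389), but its NDGA difference did not pass (adjusted p = 0.155). For the ABA difference, a fit of only the 8 libraries concerned called 2372 of all 99136 transcripts. Members called for the ABA difference numbered 20 without water day 8 replicate 1 and 16 with only the 8 libraries concerned. For the NDGA difference they numbered 20 without NDGA day 5 replicate 1, 16 without its replicate 2, 21 without water day 5 replicate 1, and 19 without its replicate 2. They were 22 without NDGA day 8 replicate 1, 20 without its replicate 2 and 21 without water day 8 replicate 2. Of the 77 seed storage transcripts, whose sums are given above, 43 were called higher and 2 lower for the ABA difference, and 41 and 1 for the NDGA difference. For the 123 ripening markers these counts were 0 and 23 with ABA, and 1 and 18 with NDGA. For the 166 epidermis and cuticle transcripts they were 1 and 20, and 0 and 7. For the 55 xylem transcripts they were 6 and 2, and 3 and 4. The part of these lists in the result was not tested.

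In water-injected fruit the roles followed different courses from day 0 to day 8. The photosystem I antenna summed to 158 and 167 RPKM at day 0, 417 and 445 at day 5 and 579 and 606 at day 8, while the photosystem II antenna had 639 and 729, then 442 and 482, then 1465 and 1613. The sum of the photosystem I antenna was higher on each later day, and that of the photosystem II antenna was lower at day 5 and higher at day 8 than at day 0. Within the photosystem I antenna the day 5 gain lay in LHCA4, with 329.9 and 358 RPKM at day 5 against 83.2 and 92.5 at day 0, and LHCA2, with 52.6 and 46.2 at day 5 against 26.9 and 19.7 at day 0. The sums of LHCA1, with 7.38 and 5.28 RPKM at day 5 against 9.15 and 7.44 at day 0, LHCA3, with 26.7 and 36.0 at day 5 against 37.8 and 42.1 at day 0, and LHCA5, with 0.335 and 0 at day 5 against 0.962 and 5.25 at day 0, were lower at day 5, and none of their transcripts passed the test. Photosystem I subunits, with 208 and 188, 134 and 141 and 371 and 332 RPKM, and the oxygen-evolving complex, with 152 and 145, 109 and 111 and 220.1 and 219.9, had the course of the photosystem II antenna. Photosystem II subunits had 519.7 and 509, 387 and 370.3 and 450.1 and 475 RPKM and were highest at day 0. PsbR made up much of these sums, with 381 and 363 RPKM at day 0, 257 and 229 at day 5 and 234 and 243 at day 8. The sums of PsbK, PsbTn, PsbW and PsbY were instead highest at day 8. CP43 overlapped between day 0 and day 8, and D2, PsbI, PsbJ and PsbM were scarce. The role was not tested without PsbR.

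Between day 0 and day 5 members moved both ways, and roles were mixed: beside LHCA2 and LHCA4, the sums of LHCB4, LHCB7, PsaF, PsaG, Psb28 and the scarce PetD were higher in both day 5 libraries. Day 5 against day 0 gave 21 members lower and 9 higher, where 7.9% and 4.98% of all transcripts were called so. The higher calls were 5 in the photosystem I antenna, 3 in the photosystem II antenna and 1 in the assembly group. LHCA4 (comp95310_c0_seq1) had 249 and 260.2 RPKM at day 5 against 50.0 and 54.5 at day 0 (log2 change 2.27 ± 0.10 (SE), adjusted p = 7.16e-09). An LHCB1 form (comp84954_c0_seq1, described as chlorophyll a-b binding protein AB80) stood at 6.37 and 4.99 at day 5 against 99.2 and 116 at day 0, the deepest fall among members (log2 change -4.02 ± 0.24 (SE), adjusted p = 1.89e-07). PsaH (comp97248_c0_seq1) had 12.9 and 8.81 at day 5 against 46.3 and 40.6 at day 0 (log2 change -1.92 ± 0.23 (SE), adjusted p = 0.000106), and PsbS (comp97349_c0_seq1) 0.397 and 0 against 8.06 and 8.18 (log2 change -2.95 ± 0.33 (SE), adjusted p = 5.03e-05). None of these 4 transcripts overlapped between the days. Members called numbered 17 without day 0 replicate 2, 18 without day 5 replicate 1 and 3 with only the 4 libraries compared. The fit of only these 4 libraries called 998 of all 99136 transcripts. Seed storage sums fell alongside, 5419 and 5517 RPKM at day 5 against 22392 and 20337 at day 0, with 54 of 77 transcripts lower and 7 higher, and 8 listed at 0 in both day 5 libraries against 2 in both day 0 libraries. Epidermis and cuticle sums were 892 and 895 RPKM at day 5 against 1502 and 1458 at day 0, with 50 of 166 transcripts lower and 8 higher. Xylem sums were 1379 and 1404 at day 5 against 1635 and 1620 at day 0, with 14 of 55 lower and 10 higher. Ripening marker sums were 3459 and 3428 at day 5 against 2327 and 2310 at day 0, with 22 of 123 lower and 28 higher. The contribution of these lists was not tested.

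Day 8 against day 5 gave 29 members higher and 0 lower (limma), where 2.89% and 1.78% of all transcripts were called so. At an unadjusted p below 0.05, 65 were higher and 2 lower, with no share of all transcripts given. Voom called 35 members higher and 0 lower, where it called 5394 of all 99136 transcripts in either direction. Both day 8 libraries lay above both day 5 libraries in 83 members, or 69.2%, where 25.0% of all transcripts did so. LHCB1 comp103470_c0_seq2 had 386 and 408 RPKM at day 8 against 53.7 and 58.3 at day 5 (log2 change 2.81 ± 0.14 (SE), adjusted p = 6.33e-08), and PsaH (comp97248_c0_seq1) had 59.5 and 60.4 against 12.9 and 8.81 (log2 change 2.38 ± 0.23 (SE), adjusted p = 4.10e-05). LHCA4 (comp95310_c0_seq1) had 274 and 262 at day 8 and 249 and 260.2 at day 5 and did not pass (adjusted p = 0.79). The antenna of photosystem II and the photosystem I subunits thus held 11 and 8 of the calls. Members called numbered 16 without day 8 replicate 1, 15 without its replicate 2, 18 without day 5 replicate 1, 19 without its replicate 2 and 1 with only the 4 libraries compared. The fit of only these 4 libraries called 45 of all 99136 transcripts. Seed storage sums were 305 and 316 RPKM at day 8 against 5419 and 5517 at day 5, with 50 of 77 transcripts lower and 2 higher, and 32 listed at 0 in both day 8 libraries against 8 in both day 5 libraries. Epidermis and cuticle sums were 1091 and 1060 RPKM at day 8 against 892 and 895 at day 5, with 0 of 166 transcripts lower and 16 higher. Xylem sums were 1059 and 954 at day 8 against 1379 and 1404 at day 5, with 9 of 55 lower and 4 higher. Ripening marker sums were 5953 and 5916 at day 8 against 3459 and 3428 at day 5, with 3 of 123 lower and 27 higher. Whether these lists took part in the day 8 difference was not tested.

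Over the whole course, day 8 against day 0 gave 24 members higher and 7 lower, where 4.87% and 5.68% of all transcripts were called so. LHCB1 comp96419_c0_seq1 rose to 599 and 645 RPKM at day 8, against 73.8 and 84.1 at day 0 (log2 change 2.96 ± 0.10 (SE), adjusted p = 7.92e-10). LHCA4 (comp95310_c0_seq1) rose to 274 and 262, against 50.0 and 54.5 at day 0 (log2 change 2.34 ± 0.10 (SE), adjusted p = 5.66e-09). The AB80 form of LHCB1 (comp84954_c0_seq1) remained below its day 0 level, with 17.9 and 24.2 at day 8 against 99.2 and 116 at day 0 (log2 change -2.31 ± 0.24 (SE), adjusted p = 3.15e-05), as did PsbR (comp95586_c0_seq2), with 213 and 222 against 354 and 342 (log2 change -0.67 ± 0.11 (SE), adjusted p = 0.00108). No pair of these groups overlapped. With only the 4 libraries compared, 5 members were called, where 823 of all 99136 transcripts were called. Seed storage sums were 305 and 316 RPKM at day 8 against 22392 and 20337 at day 0, with 63 of 77 transcripts lower and 3 higher, and 32 listed at 0 in both day 8 libraries against 2 in both day 0 libraries. Epidermis and cuticle sums were 1091 and 1060 RPKM at day 8 against 1502 and 1458 at day 0, with 43 of 166 transcripts lower and 12 higher. Xylem sums were 1059 and 954 at day 8 against 1635 and 1620 at day 0, with 11 of 55 lower and 0 higher. Ripening marker sums were 5953 and 5916 at day 8 against 2327 and 2310 at day 0, with 15 of 123 lower and 41 higher. The part of these lists in this longer comparison was not tested.

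**Figure D4:**
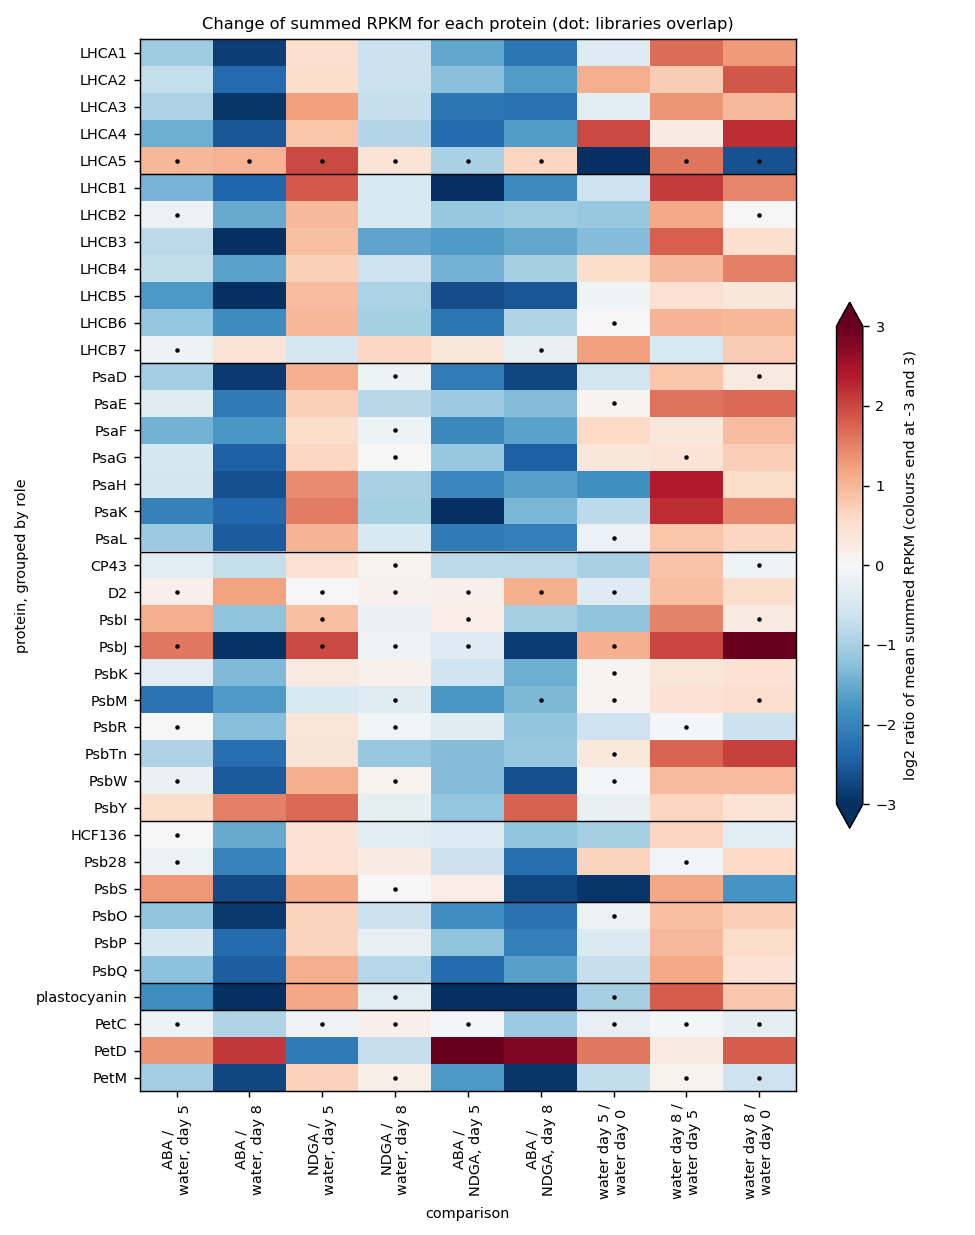
Log2 ratio of the mean summed RPKM of each of the 39 proteins (rows, grouped by role) in 9 comparisons (columns, first group over second); black dots mark libraries that overlap between the groups. In ABA against water at day 8, 34 proteins are lower in both libraries, 4 are higher and 1 overlaps. Of all single transcripts, 31.9% are lower in both ABA libraries, and no such share was made for summed proteins. LHCA5, PsbI, PsbJ, D2 and PetD are scarce, so that their ratios rest on few reads.

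Transcripts given the same protein name did not all follow their role. PsbY, a small photosystem II subunit near cytochrome b559, was the description of 5 transcripts that split by component. The forms comp99100_c0_seq1 and comp99100_c1_seq1, picked after their values were seen, were lower with ABA: comp99100_c1_seq1 had 1.76 and 0.937 RPKM with ABA against 22.3 and 23.8 with water at day 8 (log2 change -3.38 ± 0.22 (SE), adjusted p = 3.27e-07), and comp99100_c0_seq1 had 3.25 and 3.01 against 22.3 and 17.6 (log2 change -2.33 ± 0.20 (SE), adjusted p = 3.47e-06). The short transcript comp92631_c0_seq1, 295 bases with a best-hit E value of 7e-07, may not be PsbY, and had 90.4 and 98.9 RPKM with ABA against 0 and 2.76 with water at day 8 (log2 change 5.62 ± 0.52 (SE), adjusted p = 9.41e-06). At day 5 it had 31.8 and 12.8 RPKM with ABA, 23.9 and 19.3 with NDGA and 3.14 and 1.38 with water, and at day 8 with NDGA 1.72 and 1.18. At day 0 it had 0.750 and 0.409 RPKM. It was thus high in both ABA groups and in NDGA at day 5, and low elsewhere. The other form of that component, comp92631_c0_seq2, had 3.82 and 2.76 RPKM with ABA against 0.207 and 0 with water at day 8 (log2 change 1.95 ± 0.37 (SE), adjusted p = 0.00328). The form comp93333_c0_seq1 had 26.6 and 21.6 RPKM with ABA at day 8, 5.10 and 6.99 with ABA and 15.97 and 14.0 with NDGA at day 5, and was listed at 0 in all other libraries but 1 of water at day 8, which had 0.379. Its adjusted p was 5.00e-07 for ABA against water at day 8, 0.000146 at day 5 and 4.77e-06 for NDGA against water at day 5. No fold is given against groups listed at 0. The day 5 calls on comp92631_c0_seq1 were lost with a pseudocount of 0.1 (adjusted p = 0.224 for ABA and 0.202 for NDGA). The ABA call was also lost without ABA replicate 1 (0.158) or water replicate 2 (0.152). The NDGA call was lost without NDGA replicate 1 (0.115), NDGA replicate 2 (0.0755) or water replicate 2 (0.141).

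Among the 12 LHCB1 forms, comp54415_c0_seq1 was the only one called higher with ABA at day 8, at 6.00 and 6.74 RPKM with ABA against 0.487 and 1.68 with water (log2 change 1.88 ± 0.37 (SE), adjusted p = 0.00383). The PetD transcript comp102203_c2_seq4, a plastid-encoded cytochrome b6-f subunit picked after its values were seen, had 6.20 and 6.19 RPKM with ABA against 1.44 and 1.42 with water (log2 change 1.57 ± 0.41 (SE), adjusted p = 0.0231). The groups did not overlap in either, and both transcripts were scarce. At most 2 of the 33 proteins with several forms had forms called in both directions in any 1 comparison. The AB80 form of LHCB1 (comp84954_c0_seq1) had the day 0 level given above and lay at 2.42 and 3.42 RPKM with ABA against 17.9 and 24.2 with water at day 8 (log2 change -2.49 ± 0.24 (SE), adjusted p = 1.51e-05).

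Other parts of the photosynthetic pathway had smaller median changes with ABA at day 8. Of 52 Rubisco and Calvin cycle transcripts, 23 fell and 1 rose, where 8.98% and 4.3% of all transcripts did, of 61 for chlorophyll synthesis 15 fell and 1 rose, and of 32 for electron carriers and the chloroplast ATP synthase 10 fell and 1 rose. Their median log2 changes were -0.77, -0.76 and -0.54, against -1.49 for the light-harvesting and photosystem transcripts and -0.20 for all transcripts. The most abundant transcript of the Calvin cycle list, described as the regulatory protein CP12-3 (comp99349_c1_seq2), had 348 and 335 RPKM with ABA against 278 and 298 with water at day 8 (log2 change 0.25 ± 0.11 (SE), adjusted p = 0.162). Its KEGG identifier is K01115, and its identity as CP12-3 rests on the description alone. Chlorophyll synthesis transcripts summed to 225 and 233 RPKM with ABA against 419 and 416 with water at day 8. The most abundant on that list, described as a protochlorophyllide-dependent translocon component (comp105865_c0_seq19), had 23.3 and 16.4 with ABA against 54.6 and 40.3 with water (log2 change -1.22 ± 0.20 (SE), adjusted p = 0.000932). It was listed by its Swiss-Prot description alone, its KEGG identifier is K13071, and its place in chlorophyll synthesis is uncertain. Of 17 chlorophyll breakdown transcripts, 2 fell and 0 rose. The leading one, red chlorophyll catabolite reductase (comp102663_c0_seq1), which opens the way to colourless breakdown products, had 26.2 and 25.8 RPKM with ABA against 67.9 and 58.6 with water (log2 change -1.25 ± 0.14 (SE), adjusted p = 4.03e-05).

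Some stress and carrier transcripts went against the antennae. An early light-induced protein (comp96228_c1_seq1), a relative of the antenna proteins that binds pigment under light stress, had 90.5 and 96.6 RPKM with ABA against 4.80 and 2.96 with water at day 8 (log2 change 4.30 ± 0.23 (SE), adjusted p = 4.53e-08), and 62.1 and 55.4 against 12.2 and 9.19 at day 5 (log2 change 2.36 ± 0.23 (SE), adjusted p = 5.97e-05). With NDGA it had 3.07 and 4.89 RPKM at day 8 and 14.7 and 12.7 at day 5, and passed the test against water on neither day (adjusted p = 1 and 0.628). Over the 21 photoprotection transcripts 3 rose and 4 fell with ABA at day 8, where 4.3% of all transcripts rose and 8.98% fell. A ferredoxin-3 transcript (comp100444_c0_seq9), an electron carrier found in roots of other plants, had 408 and 365 with ABA against 220.0 and 167 with water (log2 change 1.00 ± 0.20 (SE), adjusted p = 0.00429). Of 25 regulators of photosynthesis genes, 2 fell and 3 rose, beside the same 8.98% and 4.3% of all transcripts. The leading one, the plastid sigma factor sigE (comp114801_c1_seq4), had 26.7 and 32.0 RPKM with ABA against 16.5 and 16.2 with water (log2 change 0.80 ± 0.22 (SE), adjusted p = 0.0281). With NDGA at day 5, 6 of 52 Rubisco and Calvin cycle transcripts, 3 of 61 for chlorophyll synthesis and 4 of 32 for electron carriers rose, and 0, 0 and 1 fell. Of all transcripts, 1.23% rose and 0.802% fell in that comparison.

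In the authors' deposited table of clustered differentially expressed transcripts, 45 of the 120 members were listed, or 37.5%, where the table holds 4.19% of all transcripts tested. The authors placed 13 of them in cluster 9, 10 in cluster 8, 7 in cluster 4, 6 in cluster 3, 5 in cluster 7, 3 in cluster 2 and 1 in cluster 6. The AB80 form of LHCB1 (comp84954_c0_seq1) was one of the 3 in cluster 2, beside a form of LHCB4 and one of PsbS. In the authors' deposited table of predicted miRNA targets, an LHCA1 transcript (comp100861_c0_seq1) and an LHCB6 transcript (comp101294_c0_seq1) were listed, each for 1 miRNA. The LHCA1 transcript had 0.470 and 0.705 RPKM with ABA against 5.73 and 2.26 with water at day 8 (adjusted p = 0.062), and the LHCB6 transcript had 2.79 and 3.43 against 9.61 and 13.6 (adjusted p = 0.00281). The table of clusters was made from these same libraries and is no independent evidence.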

How the data were processed

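RPKM per assembled transcript was deposited by the authors, per the file headers, for 14 mRNA libraries of strawberry receptacle. The labels name a Trinity assembly; for the aligner and counter, nothing is given in the sources used here. The protocol speaks of 7 mRNA libraries, while the deposited table has 14 columns. RPKM times transcript length came out within 0.1 of a whole read for 100% of values, so depth was recovered. Groups and replicate numbers came from the sample labels. The 8 lines with no transcript name were left out, and the 14 small RNA samples were not analysed here.

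The 99136 transcripts reaching an RPKM of 1 in 2 libraries entered a test with limma 3.58.1 (R 4.3.3) on log2(RPKM + 1). The fit held all 14 libraries in 7 groups (7 residual and 6.05 prior degrees of freedom, the prior following the mean level) and used no replicate block. P-values were Benjamini-Hochberg adjusted per comparison over all transcripts tested, with a threshold of 0.05. Counts at an unadjusted p are given for members alone, with no share of all transcripts, and are a description. The fit was tested on simulated data for ABA against water at day 8, with 50 changed transcripts of each size. It called 2 of 50 at a log2 change of 0.5, 8 at 1, 38 at 2 and 48 at 3, beside 4 unchanged transcripts. A transcript that did not pass can thus still have changed. Sums and tables were made with pandas 2.3.3 and figures with matplotlib 3.10.9 (Python 3.11.15).

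Replicate numbers paired the libraries only weakly: deviations of same-numbered libraries correlated at 0.0503 to 0.101 over 21 pairs of groups, always positively. A replicate block raised the calls over all transcripts in every comparison, for example from 2146 to 2795 for ABA against water at day 5. The paired libraries of no group matched within sampling noise, with median chi-square values of 1.22 to 1.65 against 0.455 for counting error alone.

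The members and the lists were chosen with earlier results of these data known. The lists, all by words of the Swiss-Prot descriptions, were chlorophyll synthesis, chlorophyll breakdown, electron carriers and ATP synthase, Rubisco and Calvin cycle, photoprotection, regulators, seed storage, ripening markers, xylem, and epidermis and cuticle. Named transcripts were the 2 most abundant of each role, the 3 of lowest adjusted p in each direction of each comparison at an RPKM of at least 5, the 2 of lowest adjusted p in each direction of the differences between days, and the most abundant of each other list. Alternatives were other scalings, filters and a smaller pseudocount, voom on recovered reads, summed components, the compared groups alone, a replicate block and the omission of each library.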

Additional observations from a re-analysis of the deposited data

Results flagged for a closer look

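For 15 of the 24 named members the change with ABA differed between day 8 and day 5, by the limma interaction on the log2 scale (ABA minus water at day 8, less the same at day 5). All of these differences were below 0. In the antennae they were -1.25 (adjusted p = 0.000171) for LHCA4 comp95310_c0_seq1, -0.88 (adjusted p = 0.00325) for LHCB1 comp96419_c0_seq1, -1.26 (adjusted p = 0.00237) for LHCB1 comp103470_c0_seq2, -2.02 (adjusted p = 0.0049) for LHCB1 comp84954_c0_seq1, -2.09 (adjusted p = 0.0065) for LHCB3 and -1.57 (adjusted p = 0.000341) for LHCB5. Photosystem I gave -2.36 (adjusted p = 0.00107) for PsaH, -2.14 (adjusted p = 0.00349) for PsaG and -1.70 (adjusted p = 0.00255) for PsaE. Photosystem II gave -1.25 (adjusted p = 0.000389) for PsbR, -0.98 (adjusted p = 0.00985) for PsbK, -1.33 (adjusted p = 0.00507) for PsbQ and -1.71 (adjusted p = 0.0312) for PsbP (comp103116_c0_seq1), and the assembly factors -1.70 (adjusted p = 0.00246) for Psb28 and -1.39 (adjusted p = 0.0142) for HCF136. The call on PsbP was lost without ABA day 5 replicate 1 (adjusted p = 0.113) or 2 (0.0628), water day 5 replicate 2 (0.129), ABA day 8 replicate 2 (0.0837), or water day 8 replicate 1 (0.111) or 2 (0.0756). The call on HCF136 (comp104335_c0_seq1) was lost without ABA day 5 replicate 2 (adjusted p = 0.0646), water day 5 replicate 1 (0.0673), ABA day 8 replicate 2 (0.058) or water day 8 replicate 1 (0.0658), and that on PsbK (comp54609_c0_seq1) without water day 5 replicate 1 (0.0506). Under a scaling to median ratios the adjusted p was 0.0626 for LHCB1 comp96419_c0_seq1, 0.0797 for PsbK and 0.0651 for PsbP. With no limit on low values it was 0.0745 for PsbP, and with voom 0.0606 for LHCB1 comp84954_c0_seq1.

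For 11 named members the change with NDGA differed between the days by the same test, again always below 0. In the antennae the differences were -3.04 (adjusted p = 1.37e-06) for LHCB1 comp103470_c0_seq2, -2.24 (adjusted p = 1.32e-06) for LHCB1 comp96419_c0_seq1, -2.34 (adjusted p = 0.00205) for LHCB1 comp84954_c0_seq1, -1.71 (adjusted p = 1.33e-05) for LHCA4 comp95310_c0_seq1, -1.48 (adjusted p = 0.00929) for LHCA4 comp96886_c0_seq1, -2.32 (adjusted p = 0.00371) for LHCB3 and -1.80 (adjusted p = 0.000136) for LHCB5. They were -2.24 (adjusted p = 0.00202) for PsaH, -1.51 (adjusted p = 0.00711) for PsaE, -1.99 (adjusted p = 0.00026) for PsbQ and -4.23 (adjusted p = 0.0001) for the PsbY form comp93333_c0_seq1, whose water libraries were listed at or near 0, so that its size depends on the pseudocount. Both sets of differences share the water libraries of both days. The call on LHCA4 comp96886_c0_seq1 was lost without NDGA day 5 replicate 2 (adjusted p = 0.0523) or water day 5 replicate 1 (0.0541).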

How the results depend on the processing

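No direction of a count or of a named call reversed under any alternative. Fitted on the compared groups alone, members called numbered 0 for ABA and 0 for NDGA on day 5, 17 for ABA and 0 for NDGA on day 8, 5 and 14 for ABA against NDGA at day 5 and day 8, 3 for day 5 over day 0 of water, 1 for its day 8 over day 5, 5 for its day 8 over day 0 and 16 for the ABA difference between days. This fit has 2 residual degrees of freedom for a pair of groups, and it ended 83 of the 136 calls on named members. Of all 99136 transcripts it called 10 for ABA and 22 for NDGA at day 5, and 1135 and 0 at day 8. For water day 8 over day 5 it called 45. With a pseudocount of 0.1, 20 were called for water day 8 against day 0 and 6 for NDGA at day 8, where 8359 and 1358 of all 99136 were called. NDGA at day 8 also gave 7 with no limit on low values, 21 with a limit of RPKM 5 and 20 with voom. Over all transcripts these settings called 2041 of 167557, 2611 of 28958 and 2526 of 99136. NDGA at day 5 gave 30 of 82 members with a limit of RPKM 5, where fewer transcripts were tested and 2570 of 28958 were called. Why the other counts moved was not tested. Without 1 library the counts were 17 to 22 for water day 5 against day 0, 15 to 19 for day 8 against day 5, 8 to 14 for ABA and 8 to 12 for NDGA at day 5, 63 to 68 for ABA and 2 to 4 for NDGA at day 8. For the differences between days they were 20 to 30 with ABA and 16 to 23 with NDGA. For water day 8 against day 0 they were 21 to 22, and for ABA against NDGA 40 to 46 at day 5 and 47 to 55 at day 8. Of the 136 named calls, 29 were lost without 1 library. With the replicate number as a block, 22 and 22 were called for ABA and NDGA at day 5, 75 and 15 at day 8, 57 and 68 for ABA against NDGA, 30, 31 and 35 for the water comparisons, and 34 and 36 for the differences; the block ended no named call. At 1 read per 0.111 to 0.136 RPKM on 1 kb, changes of plastocyanin, LHCA5, PsbJ and the other scarce members rest on few reads.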
